A study of Homo sapiens with 6 samples.

Results

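The enzymes described here are the peroxiredoxins PRDX1 to PRDX6, the superoxide dismutases SOD1, SOD2 and SOD3, and catalase (CAT), which remove hydroperoxides and superoxide without the amino acid selenocysteine. They were found by their gene names in the expression files of 6 RNA-seq libraries, where they make up 10 of 33496 listed genes. All 10 had a mean of at least 1 FPKM (fragments of RNA counted on a gene, divided by transcript length and by the library's mapped total) and were therefore among the 11981 genes tested. The libraries were made from total RNA of ARPE-19, an established human retinal pigment epithelial (RPE) line labelled as wild type. In the Era group, 3 libraries came from cells given 5 μM erastin, a small molecule that blocks cystine uptake and induces ferroptosis, for 24 h. In the Era+VK group, 3 libraries came from cells given 10 μM vitamin K1 (VK1) for 1 h before the same erastin treatment. The labels name the agents, and the doses and times are those the study gives for its ARPE-19 experiments. All 6 libraries were therefore exposed to erastin, so the comparison shows what VK1 pretreatment adds to erastin, and libraries without erastin were not analysed here. The study describes its data as coming from independent experiments, but no label ties a library to a culture or day, so the p-values measure the spread between these libraries. The titles name ARPE-19 throughout, whereas the number in the cell line field goes up by 1 from library to library.

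Superoxide dismutases convert superoxide into oxygen and hydrogen peroxide, and the hydrogen peroxide is then broken down by catalase in peroxisomes or by peroxiredoxins in most other compartments. A peroxiredoxin attacks the peroxide with a single reactive cysteine, which is afterwards reduced by thioredoxin or, in PRDX6, by glutathione. In ferroptosis iron drives the peroxidation of membrane lipids, and RPE cells, which live with light, high oxygen tension and the daily uptake of photoreceptor membranes, are known for a dense set of such enzymes.

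The reactive cysteine is common to the peroxiredoxins, so the coding sequence around that codon is shown for the 6 genes. Each stretch covers 10 codons of the annotated coding sequence, on the coding strand, with the cysteine codon in capitals, and the order of the lines follows the gene names.
PRDX1: ttcacctttgtgTGCcccacggagatcatt
PRDX2: ttcacttttgtgTGCcccaccgagatcatc
PRDX3: ttcacctttgtgTGTcctacagaaattgtt
PRDX4: ttcacatttgtgTGTccaactgaaattatc
PRDX5: ttcacccctggaTGTtccaagacacacctg
PRDX6: tttaccccagtgTGCaccacagagcttggc

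These stretches lie in coding exons of GRCh38 as annotated by GENCODE release 29. In PRDX1 the stretch is in exon 3 of 6 (chr1:45515743-45515772, minus strand), and in PRDX2 it is in exon 3 of 6 (chr19:12801005-12801034, minus strand). In PRDX6 it is in exon 2 of 5 (chr1:173481357-173481386, plus strand). An intron interrupts it in PRDX3 (chr10:119173845-119174452, minus strand), PRDX4 (chrX:23671645-23675017, plus strand) and PRDX5 (chr11:64319848-64320669, plus strand). PRDX1 and PRDX2, the cytosolic pair, shared 27 of the 30 bases, and PRDX3 and PRDX4, which work in mitochondria and in the endoplasmic reticulum, shared 25. PRDX5 shared 14 to 16 bases with any other member and PRDX6 shared 14 to 19. No stretch of 50 bases was common to the transcripts of any pair among the 10 genes, so exact matches of that length cannot move reads from one member to another.

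The libraries were alike in overall coverage, with 24143 to 24601 genes above 0, FPKM totals of 228452 to 237958, and 15.98% to 18.51% of the total on mitochondrially encoded genes. The read depth is unknown, because the files hold only FPKM and their low values did not resolve into steps of single reads. The line's identity showed in part in its markers. KRT8, KRT18, VIM, CDH2 and the RPE regulators OTX2 and MITF were well above 1 FPKM in every library, whereas CDH1 was at 0.02 to 0.04 FPKM. The visual cycle genes RPE65 and RLBP1 did not exceed 0.02 and 0.29 FPKM and RDH5 lay at 1.4 to 2.48 FPKM. PMEL lay at 1.07 to 1.42 FPKM, and TYR, TYRP1, MERTK, LRAT and SERPINF1 were under 1 FPKM in every library. BEST1 set Era replicate 3 and Era+VK replicate 1 apart, at 57.0 and 36.5 FPKM against 0.60 to 4.8 FPKM in the other 4 libraries, and the 12 RPE markers in the files summed to 48.5 to 107.2 FPKM in Era and 54.9 to 92.3 FPKM in Era+VK. Markers of other cells were low in most cases: the 5 endothelial markers summed to 0.63 to 1.07 FPKM, 1 of 5 stromal markers in the files passed 1 FPKM (PDGFRB, with DCN and LUM at 0), and 1 of 4 leukocyte markers did (CD68, with PTPRC at 0.14 or less). Era+VK replicates 2 and 3 stood apart in that the 10 globin genes summed to 234.9 and 228.3 FPKM against 0.24 to 0.61 FPKM in the other 4 libraries. In bulk RNA, fewer cells of a type and less RNA per cell cannot be told apart.

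The levels of the 10 genes spanned a wide range and kept nearly the same order in all libraries. PRDX1, a cytosolic peroxidase, was the highest at a mean of 239.6 FPKM over the 6 libraries (rank 88 of 11981), followed by PRDX5, which is found in mitochondria, peroxisomes and cytosol, at 222.0 FPKM and PRDX6 at 137.5 FPKM. SOD1, the copper and zinc enzyme of the cytosol, averaged 81.4 FPKM, PRDX2 76.7, the mitochondrial PRDX3 67.0 and the endoplasmic reticulum enzyme PRDX4 39.2. CAT averaged 25.2 FPKM. At the low end stood SOD3, the secreted superoxide dismutase, at 4.96 FPKM, and SOD2, the mitochondrial manganese enzyme, at 4.16 FPKM, which put them at ranks 6851 and 7593, below the middle of the genes tested. SOD2 has 16493 annotated exonic bases, and an overlapping second SOD2 gene model is not among the listed genes. FPKM depend on the length and model used, which are not given. The rank of SOD2, and every sum or share that includes SOD2, therefore carry these limits. The neighbours PRDX1 and PRDX5, SOD1 and PRDX2, and SOD3 and SOD2 had overlapping ranges, although PRDX1 was above PRDX5 and SOD3 above SOD2 in 6 of 6 libraries, and SOD1 above PRDX2 in 5 of 6. All other neighbours in the order had ranges that were apart. The 6 peroxiredoxins held 87.1% of the summed FPKM of the 10 genes, PRDX1, PRDX5 and PRDX6 together 66.7%, and the 3 superoxide dismutases 10.1%.

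**Figure D1:**
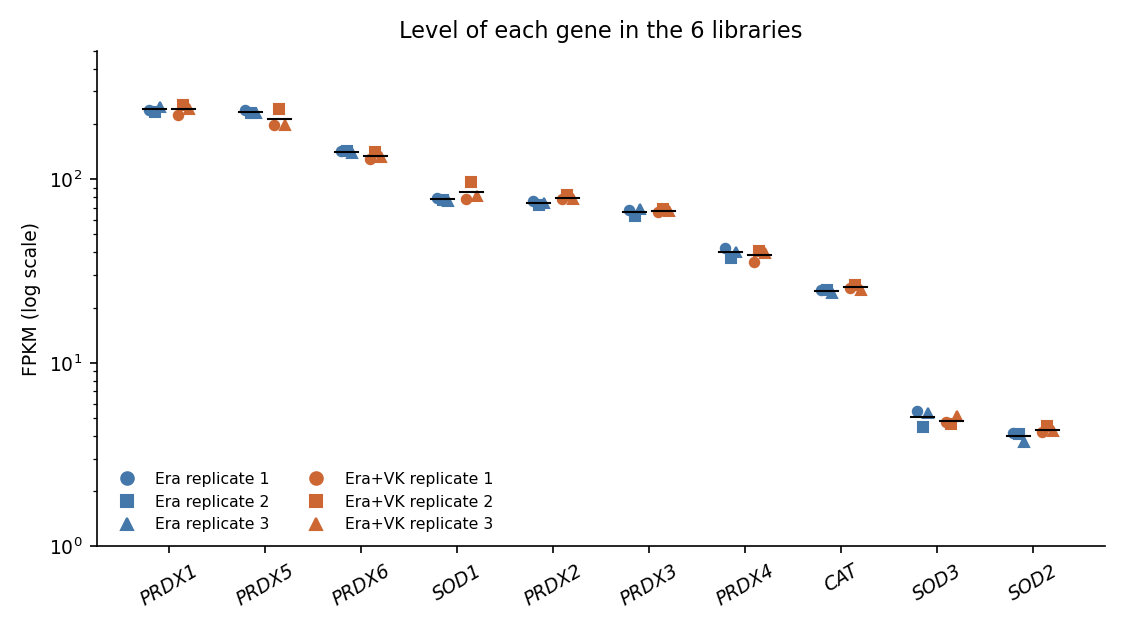
Level of each gene in the 6 libraries, in FPKM on a log axis, with genes ordered by their mean over all libraries. Each point is 1 library (blue, Era; orange, Era+VK; the marker shape gives the replicate) and the black line is the group mean; PRDX1 and PRDX5 lie at or above 197.3 FPKM and SOD3 and SOD2 between 3.72 and 5.44 FPKM in every library.

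To examine whether VK1 pretreatment changed the expression of these enzymes in erastin-treated cells, Era+VK was compared with Era. None of the 10 genes passed the threshold of an adjusted p of 0.05 in limma, and none had an unadjusted p under 0.05, whereas 0.618% of all tested genes passed the adjusted threshold (74 of 11981) and 15.8% had an unadjusted p under 0.05. By direction, 0.134% of all tested genes were called higher and 0.484% lower in Era+VK. The means of 5 members were higher and those of 5 lower in Era+VK, with a median log2 fold change of 0.0071 over the members and 0.03 over all genes tested, on the log2(FPKM + 1) scale. The 3 libraries of each group did not overlap for 3 of the 10 genes, PRDX2, SOD2 and CAT, all higher in Era+VK. Of all tested genes, 22.1% did not overlap, made up of 15.1% that were higher and 7.04% that were lower after VK1, and 3 of 10 is read against that background. With 3 libraries against 3, the exact two-sided permutation test of a single gene cannot go below p = 0.1.

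The intervals give a range for the change of each gene in this fit. All 10 of the 95% intervals of the log2 fold change included 0, and their half-widths ran from 0.098 to 0.19. Taken gene by gene, the bounds reached at most 1.23-fold higher in Era+VK and 0.799-fold of Era, on the log2(FPKM + 1) scale. The 95% level does not hold for the 10 genes jointly. Leaving out a library also moved the estimates, such as that of SOD1 to 0.18 ± 0.08 (SE) without Era+VK replicate 1. That a gene missed the threshold does not show that its level was the same in both groups.

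**Figure D2:**
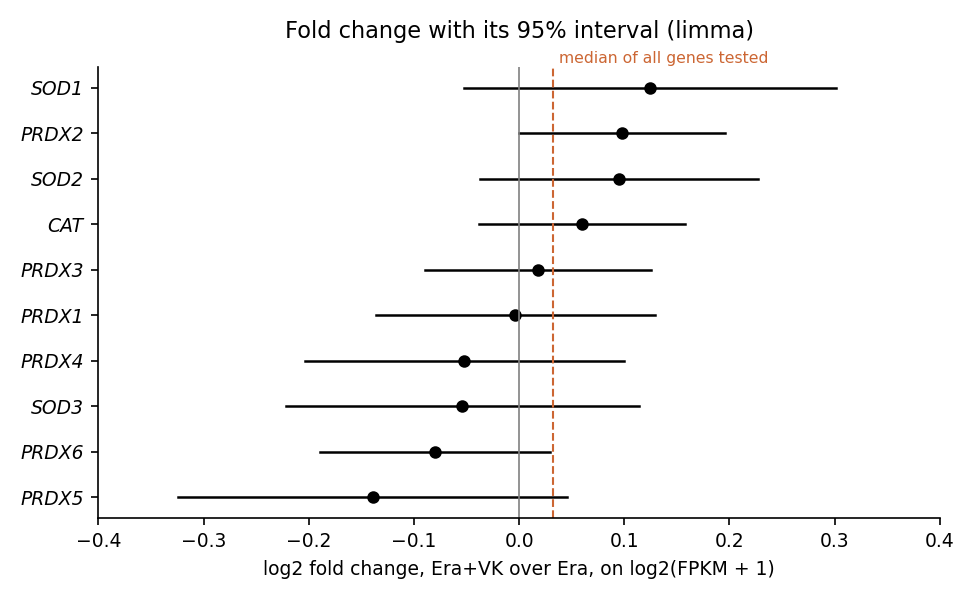
Log2 fold change of each gene, Era+VK over Era, on the log2(FPKM + 1) scale, with its 95% interval from limma; the grey line marks 0 and the dashed line the median of all genes tested, 0.03. Every interval includes 0, and that of PRDX2 only just does so, with a lower bound of -0.00026.

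Among the 2-Cys peroxiredoxins that depend on thioredoxin, PRDX2 (ENSG00000167815, chr19:12796820-12801859, minus strand) came closest to a difference. It stood at 75.6, 72.3 and 74.2 FPKM in Era replicates 1 to 3 and at 78.2, 81.9 and 77.8 FPKM in Era+VK replicates 1 to 3. Every Era+VK library was above every Era library, by a margin that is small beside the level of the gene. The group means were 74.1 ± 1.66 and 79.3 ± 2.26 FPKM (SD, n = 3 each), a 1.07-fold difference. The log2 fold change was 0.10 ± 0.04 (SE), with a limma p of 0.050 and an adjusted p of 0.318. The exact permutation test gave p = 0.1, the smallest it can give here.

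PRDX1 (ENSG00000117450, chr1:45511036-45523047, minus strand) showed no such shift. Its values were 239.1, 233.1 and 247.2 FPKM with erastin alone and 224.1, 253.9 and 240.4 FPKM with VK1, so that the lowest and the highest library were both in Era+VK. Means of 239.8 ± 7.10 and 239.5 ± 14.95 FPKM (SD, n = 3 each) left a log2 fold change of -0.0036 ± 0.06 (SE; limma adjusted p = 0.985). PRDX1 is thus the gene of the 10 with the smallest difference, and its sign changed in 4 of 16 alternative settings.

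PRDX3 and PRDX4 also overlapped between the groups. PRDX3 (ENSG00000165672, chr10:119167703-119178833, minus strand), which handles peroxide made by the respiratory chain, measured 68.3, 63.2 and 68.4 FPKM in Era and 66.5, 68.6 and 67.1 FPKM in Era+VK. Era replicate 2 was the low library, and the other 5 lay within a few FPKM of each other. PRDX4 (ENSG00000123131, chrX:23664262-23686399, plus strand), which couples peroxide removal to disulfide formation in secretory proteins, measured 42.2, 37.4 and 40.3 FPKM in Era and 35.5, 40.5 and 39.5 FPKM in Era+VK. Their log2 fold changes were 0.02 ± 0.05 and -0.05 ± 0.07 (SE), with limma adjusted p-values of 0.887 and 0.741.

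PRDX5 (ENSG00000126432, chr11:64318088-64321811, plus strand) is a peroxiredoxin that forms its disulfide within 1 chain and acts on alkyl hydroperoxides and peroxynitrite. This member depended strongly on a single library for its value. It measured 238.6, 229.9 and 228.4 FPKM in Era and 197.3, 240.4 and 197.5 FPKM in Era+VK. Era+VK replicates 1 and 3 were below every Era library and nearly equal to each other, whereas Era+VK replicate 2 was above every Era library. The means were 232.3 ± 5.50 and 211.7 ± 24.9 FPKM (SD, n = 3 each), a coefficient of variation of 2.37% in Era and 11.7% in Era+VK. The log2 fold change was -0.14 ± 0.08 (SE; limma adjusted p = 0.441, exact permutation p = 0.4). Without Era+VK replicate 2 it was -0.23 ± 0.04, with a limma unadjusted p of 0.00048 and an adjusted p of 0.0590, still not past the threshold and the lowest adjusted p of any member in any setting tried.

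PRDX6 (ENSG00000117592, chr1:173477266-173488807, plus strand), the 1-Cys member that also reduces phospholipid hydroperoxides, had the same arrangement in weaker form. Era measured 142.3, 142.7 and 138.9 FPKM and Era+VK 129.0, 140.7 and 131.6 FPKM. Replicates 1 and 3 of Era+VK were again below the Era libraries, and replicate 2 lay within their range. The means were 141.3 ± 2.08 and 133.7 ± 6.12 FPKM (SD, n = 3 each), and the log2 fold change of -0.08 ± 0.05 (SE) had a limma adjusted p of 0.453, or -0.12 with an adjusted p of 0.149 without Era+VK replicate 2.

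**Figure D3:**
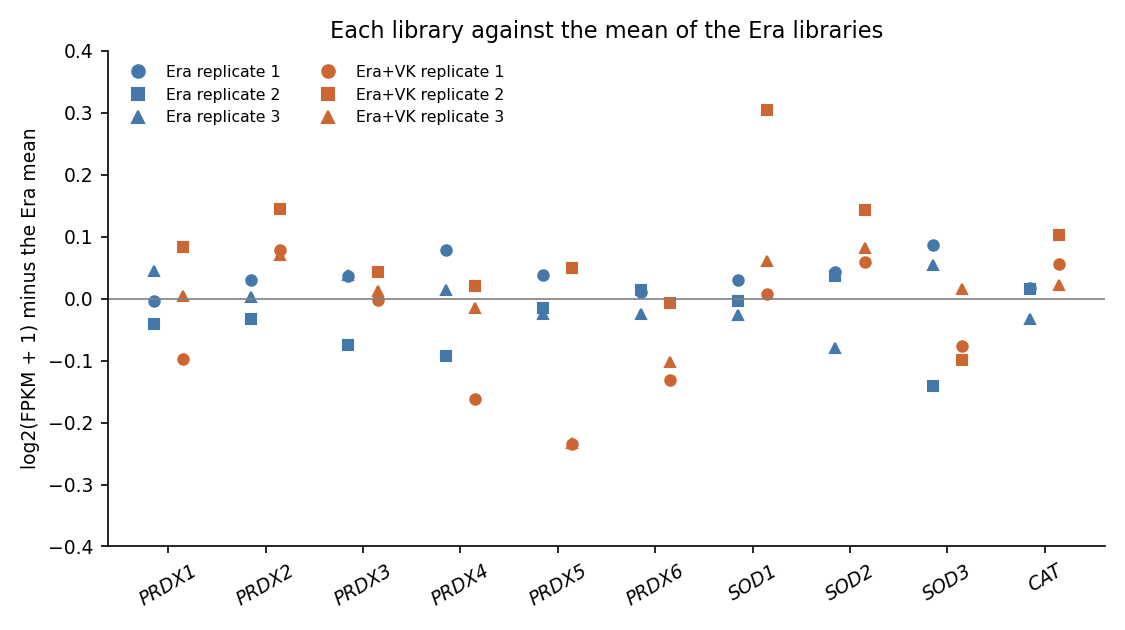
Each library's log2(FPKM + 1) minus the mean of the 3 Era libraries, by gene; blue points are Era and orange points Era+VK libraries, and the marker shape gives the replicate. Era+VK replicate 2 (orange squares) is the highest of its group for 9 of the 10 genes, and stands farthest from the others at 0.30 for SOD1 and, among the PRDX5 values, 0.05 against -0.23 for the other 2.

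Of the superoxide dismutases, SOD1 (ENSG00000142168, chr21:31659622-31668931, plus strand) had the largest positive value among the members, and it too turned on Era+VK replicate 2. SOD1 measured 79.3, 77.5 and 76.3 FPKM in Era and 78.1, 96.1 and 81.1 FPKM in Era+VK. Era+VK replicate 2 stood well above the other 5 libraries, and Era+VK replicate 1 lay among the Era libraries. With means of 77.7 ± 1.55 and 85.1 ± 9.67 FPKM (SD, n = 3 each), the log2 fold change was 0.12 ± 0.08 (SE; limma adjusted p = 0.467, exact permutation p = 0.2). It was 0.03 without Era+VK replicate 2 and 0.18 without Era+VK replicate 1.

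SOD2 and SOD3 were both low. SOD2 (ENSG00000112096, chr6:159669057-159745186, minus strand) measured 4.14, 4.12 and 3.72 FPKM in Era and 4.2, 4.51 and 4.28 FPKM in Era+VK. The groups did not overlap, but the highest Era and the lowest Era+VK library were only hundredths of an FPKM from each other. SOD2 had a log2 fold change of 0.09 ± 0.06 (SE; limma adjusted p = 0.460, exact permutation p = 0.1). SOD3 (ENSG00000109610, chr4:24789912-24800842, plus strand) measured 5.44, 4.5 and 5.3 FPKM in Era and 4.75, 4.66 and 5.13 FPKM in Era+VK, and all Era+VK values lay within the Era range. Its log2 fold change was -0.05 ± 0.07 (SE; limma adjusted p = 0.762), and it was the only member for which Era+VK replicate 2 was the lowest of its group.

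CAT (ENSG00000121691, chr11:34438925-34472062, plus strand), the haem enzyme of peroxisomes, varied little among the libraries. It measured 25, 24.96 and 24.1 FPKM in Era and 25.7, 26.6 and 25.1 FPKM in Era+VK. The groups did not overlap, again by hundredths of an FPKM at their closest. Means of 24.7 ± 0.503 and 25.8 ± 0.754 FPKM (SD, n = 3 each) gave a log2 fold change of 0.06 ± 0.04 (SE; limma adjusted p = 0.529, exact permutation p = 0.1).

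Summed by family, the 6 peroxiredoxins came to 794.1 ± 14.1 FPKM with erastin alone and 770.2 ± 49.8 FPKM after VK1 (SD, n = 3 each; exact permutation p = 0.5). The 3 superoxide dismutases came to 86.8 ± 1.91 and 94.3 ± 9.70 FPKM (exact permutation p = 0.2), of which SOD1 makes up nearly the whole. The sum over all 10 genes was 905.5 ± 15.3 FPKM for Era against 890.2 ± 60.1 FPKM for Era+VK (exact permutation p = 0.8). Within Era+VK the 10-gene sum was 843.3, 957.9 and 869.4 FPKM in replicates 1 to 3, a spread that covers the whole Era range of 889.6 to 920.03 FPKM.

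Because the values of PRDX5, PRDX6 and SOD1 turned on Era+VK replicate 2, its differences from replicates 1 and 3 were examined over all genes. It was the highest library of its group for 9 of the 10 members and for 38.4% of all tested genes. The difference moved with gene length: its median on the log2(FPKM + 1) scale was 0.09 for genes of up to 1000 annotated exonic bases, 0.12 from 1000 to 2000, 0.06 from 2000 to 4000, -0.0051 from 4000 to 8000 and -0.07 above 8000. PRDX5, with 893 exonic bases, differed by 0.28, which is at percentile 95.04 of all tested genes, and SOD1, with 2019 bases, differed by 0.27, at percentile 94.31. PRDX5, at 0.283, lay only just above the upper quartile of its length class, 0.275. SOD1 lay well above that of its own class, 0.148. PRDX1, PRDX2, PRDX3, PRDX4, PRDX6 and CAT lay within the quartiles of theirs. SOD2, with 16493 bases, lay above its class at 0.07, and SOD3 below its class at -0.07.

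The comparison was therefore repeated with the length trend of each library removed, an alternative chosen after seeing the data. PRDX6 then read 142.7, 144.3 and 139.1 FPKM in Era and 131.7, 134.1 and 132.4 FPKM in Era+VK, so the groups no longer overlapped, and its log2 fold change was -0.10 (limma unadjusted p = 0.024, adjusted p = 0.245). PRDX5 had a log2 fold change of -0.15 (limma unadjusted p = 0.033, adjusted p = 0.271). SOD1 still stood at 90.9 FPKM in Era+VK replicate 2 against 80.02 and 81.7 FPKM in replicates 1 and 3, all above the highest Era library at 79.6 FPKM. Of the 3 genes whose groups did not overlap as deposited, only PRDX2 remained so. SOD2 then read 4.18, 4.16 and 3.86 FPKM in Era and 3.98, 4.71 and 4.08 FPKM in Era+VK, and CAT read 25.1, 25.3 and 24.3 FPKM against 25.9, 25.8 and 24.9 FPKM, with overlapping groups in both. No member passed the threshold in that setting, in which 152 of 11893 genes did. The shares of all genes that separated or had an unadjusted p under 0.05 there were not counted. The members' separations and unadjusted p-values in that setting therefore have no background beside them.

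**Figure D4:**
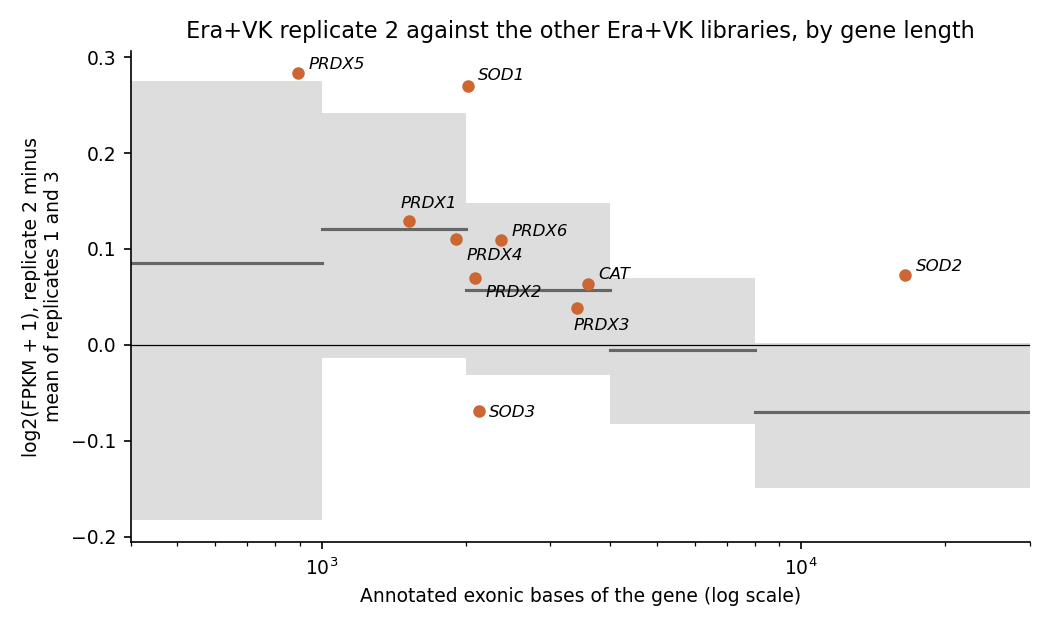
Log2(FPKM + 1) of Era+VK replicate 2 minus the mean of Era+VK replicates 1 and 3, against annotated exonic bases on a log axis. Orange points are the 10 genes, grey lines are the medians of all tested genes in 5 length classes and grey boxes their quartiles. SOD1 (0.27) stands above the box of its class, and PRDX5 (0.28) is only just above the top of its box.

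Red blood cells are rich in PRDX2, CAT and SOD1, so the globin signal is set beside those genes. The 9 globin genes other than HBM were higher in Era+VK replicates 2 and 3 than in every other library. HBG2 was the highest at 101.8 and 100.2 FPKM, HBE1 was at 49.1 and 46.3 FPKM and HBZ at 8.71 and 9.92 FPKM. Adult HBB did not exceed 0.04 FPKM. Which cells gave this signal was not tested. Of the other erythroid markers, 11 of the 16 in the files were also higher in both libraries, and the sum was 36.4 FPKM in each against 26.4 to 29.1 FPKM in the rest. Among them, GATA1 was at 2.35 and 2.27 FPKM, NFE2 at 1.63 and 1.6 FPKM and KLF1 at 1.17 and 0.82 FPKM. All 3 were at 0.11 FPKM or less in the rest. Red cell membrane genes differed: RHAG was at 0.61 and 0.57 FPKM in these libraries and GYPB at 0.10 and 0.21 FPKM, both at 0 in the other 4, whereas SLC4A1 and EPB42 were at 0.02 FPKM or less throughout. In Era+VK replicate 1, where the globin sum was 0.29 FPKM, PRDX2 was at 78.2 FPKM and CAT at 25.7 FPKM, both above every Era library, and SOD1 was at 78.1 FPKM, within the Era range. Without Era+VK replicates 2 and 3 the log2 fold changes were 0.08 for PRDX2, 0.06 for CAT and 0.0079 for SOD1, with the single remaining library assumed to vary like the others. In the same setting PRDX1 was at -0.10, PRDX3 at -0.0025, PRDX4 at -0.16, PRDX5 at -0.23, PRDX6 at -0.13, SOD2 at 0.06 and SOD3 at -0.08, and no member passed the threshold in limma.

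Reads of PRDX2 may also be shared with an antisense locus listed by identifier alone, ENSG00000267062, which overlaps it on the opposite strand and shares 201 of its 2183 distinct stretches of 50 bases. That locus was at 8.30 FPKM in Era replicate 2, at 8.51 and 8.27 FPKM in Era+VK replicates 2 and 3, and at 0 in the other 3 libraries. Its values were thus either near-equal or 0, and both kinds occurred in each group. Whether counting used strand is not given in the sources used here, so reads of PRDX2 and of this locus cannot be told apart, and its part in the PRDX2 difference was not tested. PRDX1 shares 332 of its 1612 stretches with the overlapping gene MMACHC, which was at 0.97 to 1.42 FPKM. SOD2 shares 797 of its 16764 stretches with an overlapping second SOD2 gene model, which is not among the listed genes.

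**Figure D5:**
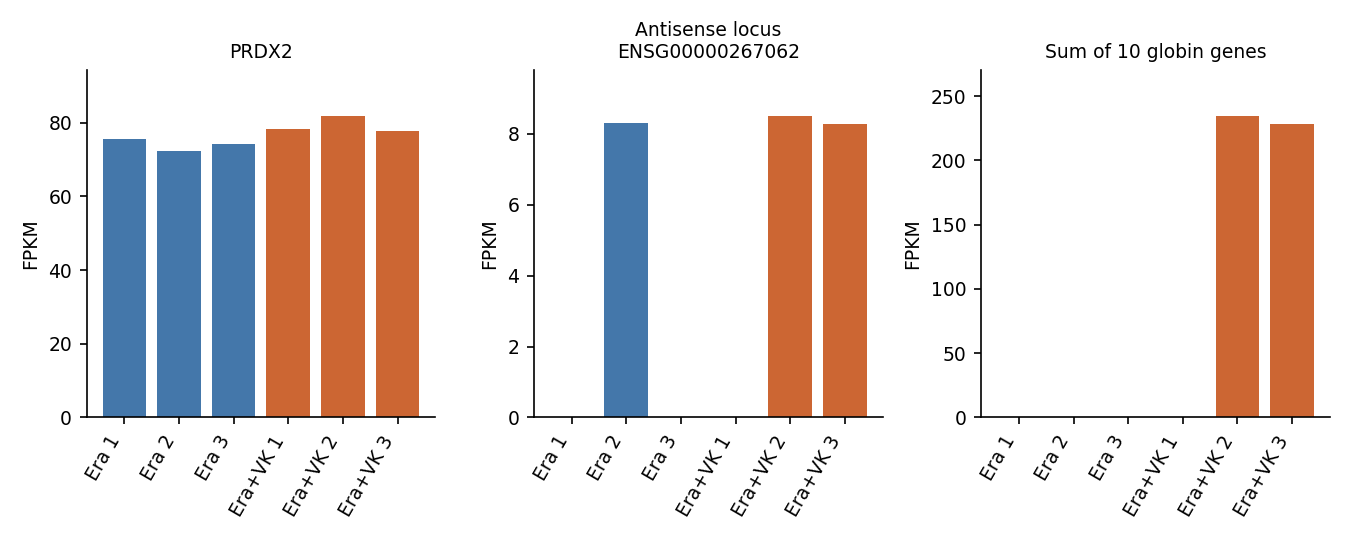
FPKM of PRDX2, of the overlapping antisense locus ENSG00000267062 and of the sum of 10 globin genes in each library, from 0 on linear axes; each bar is 1 library (blue, Era; orange, Era+VK). PRDX2 lies between 72.3 and 81.9 FPKM in all libraries, the antisense locus is near 8 FPKM in 3 libraries and at 0 in 3, and the globin sum is 234.9 and 228.3 FPKM in Era+VK replicates 2 and 3.

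The genes whose pattern over the 6 libraries was most like that of PRDX2, the member with the lowest p, were the long noncoding RNA LINC00667, the endoplasmic reticulum selenoprotein gene SELENOT and RSAD1, each with Pearson's r = 0.993 on log2(FPKM + 1). These 3 were picked as the highest correlations among the 11981 genes tested, over only 6 libraries that share their processing. The size of r is therefore a description only. SELENOT averaged 20.1 FPKM without and 22.9 FPKM with VK1, and none of the 3 passed the threshold in limma, with adjusted p-values of 0.680, 0.210 and 0.455.

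The promoters of these enzymes were searched for the antioxidant response element, the sequence bound by NRF2, through its core TGACNNNGC on either strand. In the RefSeq windows of GRCh38.p14, which cover 300 bases around a transcription start, the core was in 0 of 11 windows of PRDX2, PRDX3, PRDX4, PRDX5, SOD2, SOD3 and CAT, and in 13.35% of all 35116 windows. Windows of PRDX1, PRDX6 and SOD1 were not analysed here, and the result says only that these letters are not in these windows.

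Genes that supply, repair or feed these enzymes were described from 6 lists, and no gene of any list passed the threshold in limma. In the thioredoxin and glutaredoxin cycle with peroxiredoxin repair, 15 of 16 genes were tested, 3 had an unadjusted p under 0.05 and the median log2 fold change was 0.04. The largest differences were in NXN, which encodes the thioredoxin-like nucleoredoxin (4.03 ± 0.319 FPKM in Era, 4.83 ± 0.285 in Era+VK, log2 fold change 0.21, limma adjusted p = 0.196), and in the stress-induced sestrin gene SESN2 (11.6 ± 0.232 and 10.1 ± 0.937 FPKM, -0.19, adjusted p = 0.238). Both separated the groups, NXN upwards and SESN2 downwards. Of 9 glutathione peroxidases and microsomal glutathione transferases, 7 were tested, 2 had an unadjusted p under 0.05 and the median was 0.03. GPX8, a peroxidase of the endoplasmic reticulum, averaged 20.4 FPKM in Era and 17.7 in Era+VK (-0.20, limma adjusted p = 0.197), and MGST1, a membrane enzyme that reduces lipid hydroperoxides, 34.2 and 30.3 FPKM (-0.18, adjusted p = 0.285).

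Of 10 genes for copper and manganese supply to superoxide dismutases, 7 were tested, 1 had an unadjusted p under 0.05 and the median was 0.02. The metal importer SLC39A14 (-0.14, limma adjusted p = 0.386) and CCS, the chaperone that loads copper into SOD1 (0.14, adjusted p = 0.710), overlapped between the groups. The gene with the unadjusted p under 0.05 was the metal importer SLC39A8, named after its values were seen. It averaged 5.29 ± 0.231 and 5.91 ± 0.285 FPKM, higher in every Era+VK library, with a log2 fold change of 0.13 (limma unadjusted p = 0.040, adjusted p = 0.294). All 10 genes of peroxisomal matrix import, the route by which catalase reaches its organelle, were tested with a median of -0.0073, and none had an unadjusted p under 0.05. The import receptor PEX5 had a log2 fold change of 0.10 (limma adjusted p = 0.448).

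Of 24 enzymes that produce hydrogen peroxide or superoxide, 10 were tested, 1 had an unadjusted p under 0.05 and the median was -0.04. That one was LOX, the secreted lysyl oxidase, which releases hydrogen peroxide as it crosslinks collagen. It measured 121.1, 124.9 and 127.1 FPKM in Era and 101.4, 96.7 and 111.7 FPKM in Era+VK. Every Era+VK library was below every Era library, and the log2 fold change was -0.27 ± 0.06 (SE; limma adjusted p = 0.103). The polyamine oxidase gene PAOX averaged 2.48 and 2.12 FPKM with overlapping groups (-0.13, adjusted p = 0.794).

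Of 13 transcription regulators known for these enzymes, 12 were tested, 2 had an unadjusted p under 0.05 and the median was 0.06. NRF1, which encodes nuclear respiratory factor 1, averaged 2.34 ± 0.204 and 2.88 ± 0.256 FPKM (0.22, limma adjusted p = 0.224), with Era+VK higher in every library.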

How the data were processed

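Libraries of total RNA (paired-end reads, Illumina) were processed by the authors, and per the labels the tools were cutadapt, HISAT2 and StringTie 2.1.6. The deposited values are FPKM for each gene and library, normalized by the authors for transcript length and mapped fragments, and FPKM hold no read depth. The submitters' processing notes name the mouse build mm10, whereas the gene identifiers are human, so positions and sequences were taken by identifier from GENCODE 29 on GRCh38. Library strandedness and the annotation used are not given in the sources used here.

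The test covered genes whose 6 libraries averaged 1 FPKM or more, on log2(FPKM + 1), with limma 3.58.1 in R 4.3.3 (lmFit, then eBayes with a trend), with Benjamini-Hochberg adjustment over all genes tested and a threshold of 0.05. Single values were also tested with exact two-sided permutation tests (SciPy 1.17.1). The fit was tested on simulated data. The text names all 10 members, every called gene of the pathway lists or otherwise the 2 with the largest absolute log2 fold change per list, and the 3 genes most correlated with the member of lowest p. Some genes that this rule names are not reported here. The members, pathway lists and marker lists were chosen with earlier results of these data known. Alternatives were a pseudocount of 0.1, 2 other filters, quantile normalization, rescaling without mitochondrially encoded genes or to equal totals, a replicate block, no variance trend, removal of each library in turn or of both globin-bearing libraries, and removal of each library's length trend. Rescaling to equal totals and the length trend were chosen after seeing the data.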

Additional observations from a re-analysis of the deposited data

How the results depend on the processing

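Under 16 alternative settings the 10 members gave 160 log2 fold changes, of which 152 kept their direction and none was called. PRDX2, PRDX5, PRDX6, SOD1, SOD2, SOD3 and CAT kept their direction in all 16. PRDX1 reversed to 0.011 with quantile normalization and 0.018 with rescaling to equal totals, and over the removal of each library in turn it ran from -0.047 (without Era+VK replicate 2) to 0.043 (without Era+VK replicate 1), with 0.019 without Era replicate 3. PRDX3 reversed to -0.0025 without Era+VK replicates 2 and 3 and to -0.0052 with the length trend removed, and ran from -0.020 (without Era replicate 2) to 0.037 (without Era replicate 3) over the removal of each library. PRDX4 ran from -0.099 to 0.0029 over the removal of each library, the latter without Era+VK replicate 1, and was -0.16 without Era+VK replicates 2 and 3. The reversals are smaller than the standard errors, and their cause was not tested.

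The number of genes called over the whole table, 74, changed more. It was 1 without a filter on low values, 122 with at least 1 FPKM in every library, 112 with quantile normalization, 44 without the variance trend, 152 with the length trend removed, and 35 without Era+VK replicates 2 and 3. Removing 1 library at a time gave 2 to 70 genes, with 2 without Era replicate 1, 2 without Era replicate 2, 5 without Era replicate 3 and 42 without Era+VK replicate 3. The replicate block gave 42 genes and no member. Same-numbered libraries correlated at r = 0.07, 0.10 and 0.02 in their deviations from the group means. Each Era+VK library correlated best with the Era library of its number, for replicate 3 at 0.021 against 0.020 with Era replicate 2. Era replicate 3 correlated best with Era+VK replicate 1, at 0.04. These values are low and no label ties the numbers to a shared culture or day, so the main fit did not pair libraries. FPKM without counts give no depth, which leaves the precision of the lowest members, SOD2 and SOD3, unknown beyond their replicate spread.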
